A study of Mus musculus with 14 samples.

Results

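Excitation-contraction coupling of striated muscle was examined through 10 genes, Ryr1, Cacna1s, Cacng1, Atp2a1, Atp2a2, Casq1, Casq2, Sln, Pvalb and Trdn, in bulk RNA-Seq of the mouse esophagus. The genes were taken by symbol from the 55291 symbols counted in each of 14 libraries, and all 10 were present and had counts in every stromal library. The libraries came from 9 C57BL/6 mice, which the labels divide into young (up to 4 months) and aged (18 months or older). In the authors' methods, the muscle layer was taken off with forceps, which left mucosa enriched in epithelium. Tissue labelled epithelium was sequenced for 5 aged mice (O1, O2, O3, OF5, OM8) and 4 young mice (Y1, Y3, YF5, YM4). The tissue labelled stroma was sequenced for 3 of these aged mice (O1, O2, O3) and 2 of the young (Y1, Y3). The labels name no treatment and no engineered allele for any of the mice. Sex was given for OF5, OM8, YF5 and YM4 but not for the other 5 mice. The questions the labels allow were how the levels differed between the layers and whether they differed with age in the layer where they were high.

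In skeletal muscle, an action potential runs along the surface membrane and into the transverse tubules, where the voltage sensor, an L-type calcium channel, opens the ryanodine receptor of the sarcoplasmic reticulum. Calcium leaves the store, the sarcomeres shorten, and calcium pumps refill the store, where calsequestrin holds calcium in bound form. The mouse esophagus, unlike that of humans, is surrounded by striated muscle along most of its length. Several of the genes have partners used by heart, slow fibres or non-muscle cells, so the set holds both muscle-restricted and broadly expressed forms.

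The libraries differed in depth and content. Total counts ran from 8217516 to 21867101 in epithelium and from 13257833 to 15644580 in stroma. OF5, OM8, YF5 and YM4, the mice without stroma, had 63.9% to 73.9% of their counts in rRNA genes and 1042394 to 1433857 protein-coding counts, against 10.6% to 24.4% in the other epithelial libraries and 1.61% to 2.18% in stroma. Levels are given as normalized counts, which are CPM on the TMM-adjusted library size, and 3 counts corresponded to 0.0872 to 1.25 of them depending on the library. The 5 keratinocyte markers Krt5, Krt14, Krt13, Krt4 and Krtdap summed to between 16649 and 53124 normalized counts in epithelium and to between 34.5 and 435 in stroma. The 6 fibroblast markers Col1a1, Col1a2, Col3a1, Dcn, Lum and Pdgfra summed to between 280 and 632 in epithelium and to between 415 and 1031 in stroma. Libraries of both layers thus held fibroblast RNA. The 11 fast-fibre markers (Acta1, Ckm, Tnnt3, Tnni2, Tnnc2, Mylpf, Myh1, Myh2, Myh4, Ttn and Neb) summed to between 39949 and 72826 in stroma and to between 15.5 and 1692 in epithelium. The tissue labelled stroma therefore carried abundant fast skeletal muscle RNA. The marker list is not confined to fast fibres, since Acta1, Ttn and Neb are expressed in slow fibres too. Ttn alone made 18986 to 40469 normalized counts in stroma. In bulk tissue, fewer cells of a type and less RNA per cell cannot be told apart.

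The genes lie on different chromosomes for the most part and are given here on GRCm38 from GENCODE M21, each protein-coding. Ryr1 is at chr7:29003344-29125179 on the minus strand, Cacna1s at chr1:136052750-136119822 on the plus strand and Cacng1 at chr11:107703218-107716522 on the minus strand. The pump genes Atp2a1 and Atp2a2 are at chr7:126445858-126463108 and chr5:122453513-122502225, both on the minus strand. Casq1 is at chr1:172209894-172219868 on the minus strand and Casq2 at chr3:102086415-102146514 on the plus strand. Sln is at chr9:53850164-53854560 (plus), Pvalb at chr15:78191114-78206400 (minus) and Trdn at chr10:33080554-33476709 (plus). No stretch of 50 bases was shared between transcripts of any pair of these genes, so counts of Atp2a1 and Atp2a2, and of Casq1 and Casq2, come from different sequence. Exons of Atp2a1 overlap exons of Rabep2 on the opposite strand over 763 bases (21.9% of its exon length), and those of Cacna1s overlap Gm37759 over 1309 bases. The strand setting of the counting is not given in the sources used here, so reads of such overlaps cannot be assigned to a strand.

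Promoter sequence was available from RefSeq (GRCm38.p6) for 6 of the 10 genes, namely Ryr1, Cacna1s, Atp2a1, Casq1, Casq2 and Pvalb. A set of 4 is shown over the 250 bases before the start site because they include the fast-fibre pump, both calsequestrins and the voltage sensor, whose levels are compared below. Capitals mark CANNTG, the E-box to which myogenic factors such as MyoD can bind. The windows are chr1:136052561-136052810 (plus strand) for Cacna1s, chr7:126463074-126463323 (minus strand) for Atp2a1, chr1:172219896-172220145 (minus strand) for Casq1 and chr3:102086165-102086414 (plus strand) for Casq2. The start sites are those of RefSeq. For Cacna1s and Atp2a1 they lie inside the GENCODE gene spans given above, so those windows include part of the annotated gene.
Cacna1s: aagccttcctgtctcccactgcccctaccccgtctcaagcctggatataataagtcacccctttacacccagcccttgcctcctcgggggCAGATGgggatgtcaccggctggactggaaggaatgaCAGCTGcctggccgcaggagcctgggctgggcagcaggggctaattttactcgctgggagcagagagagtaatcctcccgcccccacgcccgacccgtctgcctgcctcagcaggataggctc
Atp2a1: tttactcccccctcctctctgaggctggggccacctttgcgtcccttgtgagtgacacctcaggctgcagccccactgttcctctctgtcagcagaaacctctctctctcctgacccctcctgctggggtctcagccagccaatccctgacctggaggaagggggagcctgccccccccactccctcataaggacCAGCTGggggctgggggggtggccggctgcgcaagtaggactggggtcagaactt
Casq1: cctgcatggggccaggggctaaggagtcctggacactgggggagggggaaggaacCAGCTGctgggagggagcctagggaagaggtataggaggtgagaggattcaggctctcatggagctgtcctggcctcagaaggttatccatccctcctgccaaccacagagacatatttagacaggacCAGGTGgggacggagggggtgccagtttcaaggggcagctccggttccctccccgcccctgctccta
Casq2: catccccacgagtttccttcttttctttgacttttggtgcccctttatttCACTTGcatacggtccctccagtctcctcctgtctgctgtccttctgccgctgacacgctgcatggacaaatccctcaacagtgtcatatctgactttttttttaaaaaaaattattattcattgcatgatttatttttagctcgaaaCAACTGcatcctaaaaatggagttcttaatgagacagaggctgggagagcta
Both strands were searched. The form CAGCTG, which counts as an E-box too, was present in Cacna1s (first base 123 bases before the start site), Atp2a1 (55 bases) and Casq1 (195 bases), that is in 3 of the 6 genes, and in 13% of 32851 promoter windows of this length. An E-box of any form was present in 5 of the 6 genes, and in 66.2% of all windows. A match to MEF2 was found in Casq2 (69 bases before the start site) and in 1 of the 2 windows of Pvalb, and in 2.92% of all windows. TATAAA was found in none of the 6 genes and in 12.4% of all windows. These matches are letters in a window, and no binding was measured.

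The genes of the release channel and its voltage sensor were close to absent from epithelium and high in stroma. Ryr1, the skeletal ryanodine receptor, had 1914, 1432 and 1149 normalized counts in stroma of O1, O2 and O3 and 1772 and 1326 in Y1 and Y3. In epithelium its lowest, median and highest values were 3.12, 8.75 and 38.3. The layers did not overlap, and the fitted log2 fold change of stroma over epithelium was 6.84 (SE 0.53, adjusted p = 2.91e-09, edgeR quasi-likelihood test over all 14 libraries). Cacna1s, the pore-forming and voltage-sensing subunit of the L-type channel, had 226, 177 and 125 normalized counts in aged stroma and 191 and 177 in young stroma, and between 0 and 5.42 in epithelium (median 1.10). The difference was 6.58 on the log2 scale (SE 0.51, adjusted p = 2.16e-08). Cacng1, the gamma subunit of the same channel, had the most even level of the set, at 75.9, 77.5 and 74.0 in aged stroma and 81.6 and 63.9 in young stroma, against 0 to 4.58 in epithelium (median 0.523), a log2 fold change of 6.19 (SE 0.50, adjusted p = 3.07e-08). Trdn encodes triadin, which links calsequestrin to the ryanodine receptor. It had 258, 175 and 125 normalized counts in aged stroma and 206 and 195 in young stroma, against 0 to 6.05 in epithelium (log2 fold change 6.30, SE 0.59, adjusted p = 3.39e-07).

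**Figure D1:**
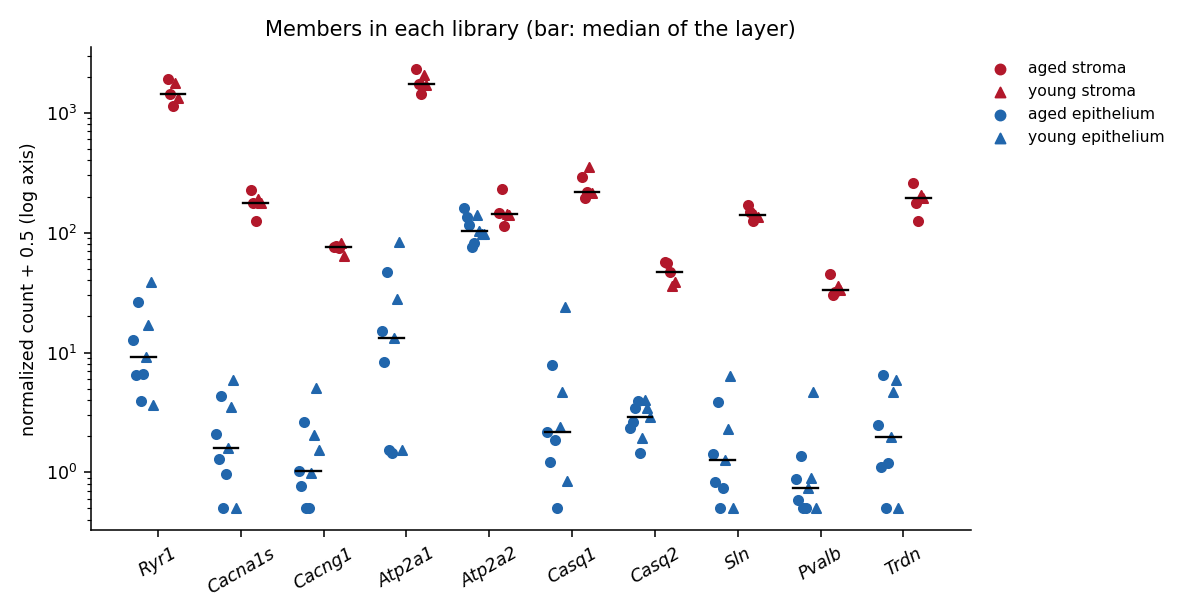
Normalized counts (0.5 added, log axis) of the 10 genes in each of the 14 libraries, with circles for aged and triangles for young mice, red for stroma and blue for epithelium, and a bar at the median of each layer. The layers are separate for 9 genes, and only for Atp2a2 do the ranges meet, 114 to 232 in stroma and 75.8 to 159 in epithelium.

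The 2 pump genes differed in the way they were distributed. Atp2a1 encodes SERCA1, the calcium pump of fast fibres. It had 2302, 1724 and 1422 normalized counts in aged stroma and 2066 and 1714 in young stroma. In epithelium its lowest, median and highest values were 0.943, 12.8 and 82.5, the last in YF5, and stroma exceeded epithelium by a log2 of 6.42 (SE 0.91, adjusted p = 2.76e-05). Atp2a2 encodes SERCA2, the pump of slow fibres, heart and, in another splice form, of most other cells. It had 144, 232 and 114 normalized counts in aged stroma, 142 and 140 in young stroma, and 75.8, 102 and 159 as the lowest, median and highest values in epithelium. The layers overlapped. Its log2 fold change was 0.47 (SE 0.20, 95% CI 0.043 to 0.898) with an unadjusted p of 0.0326 and an adjusted p of 0.0570, so it did not pass the threshold, while 6 of 17 alternative settings placed it past the threshold, with adjusted p from 0.000410 to 0.365 over all of them. Within the 5 mice with both layers, the epithelial level of Atp2a2 was 57.7% to 110% of the stromal level of the same mouse. The edgeR fit with mouse as a block gave 0.21 (SE 0.18, adjusted p = 0.365). The same libraries without the block gave 0.24 (edgeR, adjusted p = 0.330). OF5, OM8, YF5 and YM4, which these fits leave out, had the lowest epithelial levels, at 75.8, 81.3, 96.7 and 96.9. O2 stroma, which held the highest Atp2a2 level, also held the highest sum of the 5 smooth muscle markers Acta2, Myh11, Cnn1, Tagln and Smtn, at 2051 normalized counts against 303 to 941 in the other stromal libraries and 333 to 835 in epithelium. The part of smooth muscle in the Atp2a2 level was not tested, and without O2 the log2 fold change was 0.33 (adjusted p = 0.210). On CPM of the deposited total, in which rRNA is included, the layers differed by 1.37 in mean log2 level of Atp2a2, against 0.47 on the TMM scale.

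The calsequestrins also differed. Casq1, the fast-fibre form, had 291, 194 and 220 normalized counts in aged stroma and 354 and 214 in young stroma, against 0 to 23.3 in epithelium (median 1.66), a log2 fold change of 6.00 (SE 0.81, adjusted p = 2.32e-05). Casq2, the form of heart and slow fibres, had 56.1, 55.1 and 46.4 in aged stroma and 35.7 and 38.1 in young stroma. In epithelium it ran from 0.943 to 3.53 (median 2.42), was above 0 in every library and varied less between them than Casq1. Its log2 fold change was 4.29 (SE 0.23, adjusted p = 7.24e-12).

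Among the genes that act on calcium beside the channel and the stores, Sln encodes sarcolipin, a small membrane peptide that lowers pump efficiency, and Pvalb encodes parvalbumin, a soluble calcium buffer of fast fibres. Sln had 170, 149 and 124 normalized counts in aged stroma and 140 and 134 in young stroma, and 0 to 5.83 in epithelium (median 0.779), a log2 fold change of 6.68 (SE 0.57, adjusted p = 1.03e-07). Pvalb had 44.7, 29.7 and 31.5 in aged stroma and 35.7 and 33.0 in young stroma, and 0 to 4.17 in epithelium (median 0.248), a log2 fold change of 6.27 (SE 0.53, adjusted p = 2.48e-08).

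Across the set, 9 of 10 genes were called higher in stroma and none lower. Of 16791 genes tested, 5059 (30.1%) were called higher in stroma and 4382 (26.1%) lower. The groups also did not overlap for those 9 genes, which was the case for 2834 genes (16.9%) of those tested. The median log2 fold change was 6.28 over the 10 genes and 0.05 over all genes tested. The count of 9 was the same without YF5, in the 10 libraries of the 5 mice with both layers, and in the same 10 libraries with mouse as a block. Requiring 10 counts in every library left Atp2a2 alone of the set to be tested.

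**Figure D2:**
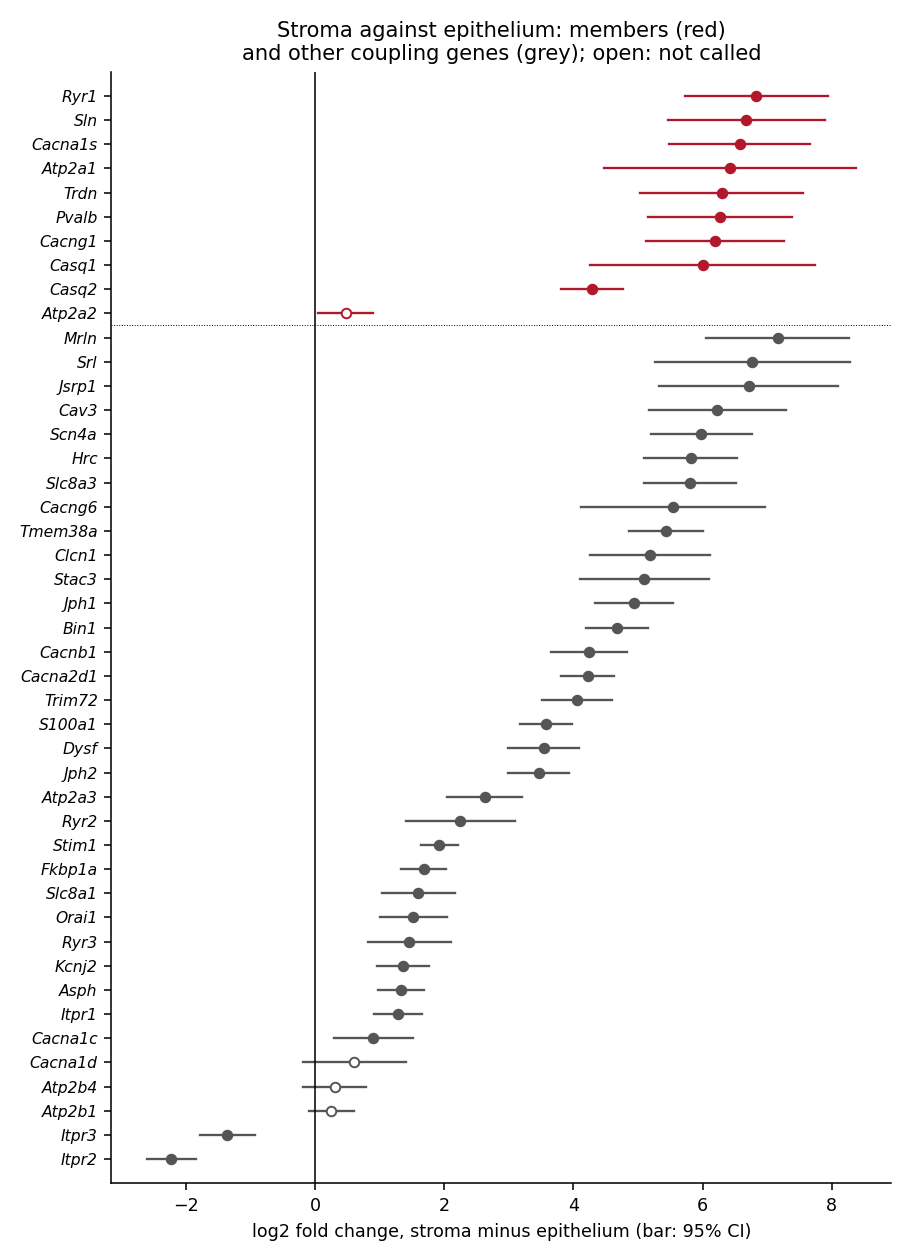
Log2 fold change of stroma over epithelium with its 95% CI for the 10 genes (red) and for 35 of the other coupling genes tested (grey), with open points for genes not called. Of the set, 8 genes lie between 6.00 and 6.84, Casq2 lies at 4.29, and Atp2a2 lies at 0.47.

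Levels of different genes were put in order per kilobase of exon. In stroma, normalized counts per kilobase were 531 ± 98.4 (SD, n = 5) for Atp2a1, 131 ± 34.0 for Casq1, 109 ± 13.2 for Sln, 69.5 ± 14.5 for Ryr1 and 59.7 ± 5.26 for Cacng1. They were 33.5 ± 5.65 for Pvalb, 27.3 ± 5.55 for Cacna1s, 25.4 ± 7.44 for Atp2a2, 20.5 ± 5.16 for Trdn and 16.9 ± 3.43 for Casq2. Atp2a1 stood above Casq1, Sln above Ryr1, and Cacng1 above Pvalb, in all 5 libraries with no overlap of ranges. Every other neighbouring pair in this order had overlapping ranges, and Trdn exceeded Casq2 in 3 of 5 libraries. The level of the voltage sensor pore gene was thus below that of Ryr1 and of its own gamma subunit gene on this scale, which depends on the merged exon length of each gene (21838 bases for Ryr1, 1249 for Cacng1).

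The ratio of Atp2a1 to Atp2a2 per kilobase separated the layers in every library. It was 27.9, 12.98 and 21.9 in stroma of O1, O2 and O3 and 25.5 and 21.4 in Y1 and Y3. In epithelium it was 0.160 in O1, 0.103 in O2, 0.704 in O3, 0.160 in Y1 and 0.475 in Y3. It was 0.0238, 0.0203 and 0.0187 in OF5, OM8 and YM4, on 3, 4 and 3 counts of Atp2a1. It reached 1.49 in YF5, the only epithelial library above 1. The mean log2 ratio was 4.41 ± 0.43 (SD, n = 5) in stroma and -2.86 ± 2.24 (SD, n = 9) in epithelium, a difference of 7.26 (exact permutation test, two-sided, p = 0.000999, the smallest that 5 against 9 libraries can give). The ratio of Casq1 to Casq2 was 7.28, 4.95 and 6.64 in aged stroma and 13.9 and 7.88 in young stroma, and ran from 0 (OM8) to 11.2 (YF5) in epithelium. YF5 therefore lay within the stromal range, on 56 counts of Casq1 and 7 of Casq2, and the next highest epithelial value was 3.52 (O3). The mean log2 ratio (0.5 added to each count) was 2.94 ± 0.54 (SD, n = 5) in stroma and 0.09 ± 1.88 (SD, n = 9) in epithelium, a difference of 2.84 (exact permutation test, two-sided, p = 0.00699). Over the 4 tests of ratios, by layer and by age in stroma, the Benjamini-Hochberg adjusted values of these 2 were 0.00400 and 0.0140. Both layer tests took the 14 libraries as independent, although 5 mice gave a library of each layer, and no paired test was run. In each of these mice both ratios were higher in stroma than in epithelium.

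**Figure D3:**
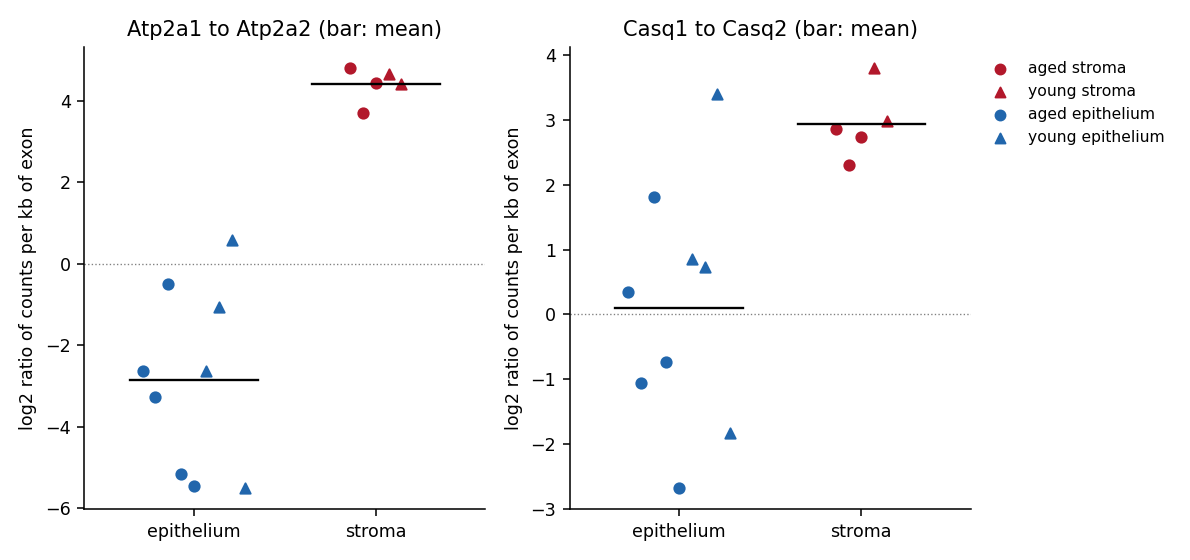
Log2 ratio of counts per kilobase of exon, Atp2a1 to Atp2a2 on the left and Casq1 to Casq2 on the right, with 1 point per library (circles aged, triangles young) and a bar at the mean of each layer. The pump ratio lies between 3.70 and 4.80 in stroma and between -5.52 and 0.58 in epithelium, and the calsequestrin ratio of YF5 epithelium (3.40) lies within the stromal range.

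The low epithelial levels of most genes of the set moved with those of fast-fibre genes in the mice with both layers. In the 5 mice with both layers, the epithelial sum of the 11 fast-fibre markers was 0.303% to 2.48% of the stromal sum of the same mouse. The corresponding values were 0.417% to 2.25% for Ryr1, 0.446% to 3.09% for Cacna1s, 0.457% to 3.27% for Atp2a1, 0.374% to 3.35% for Casq1, 0.224% to 2.73% for Sln and 0.346% to 4.84% for Trdn. O3 held the highest and O2 the lowest percentage for each of these genes and for the marker sum. Casq2 stood at 3.27% to 9.26%, above the fast-fibre sum in every mouse. YF5 held the highest epithelial level of 7 of the 10 genes and the highest fast-fibre sum of any epithelial library (1692 normalized counts), whereas OF5, with a fast-fibre sum of 15.5, was at 0 for 5 of the 10 genes. A count of 0 in OF5 allows up to 1.03 normalized counts, for counting error only. Whether muscle left on the peeled sheets accounts for these levels was not tested.

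Expressed per 1000 counts of the fast-fibre markers in the same library, 7 of the 10 genes had overlapping ranges in the 2 layers of the 5 mice. In O3, Ttn made 18986 of the 39949 normalized counts of the marker sum in stroma and 300 of 991 in epithelium. In O1 it made 40469 of 72826 in stroma and 174 of 375 in epithelium. The size of the differences between the layers on this scale therefore depends on Ttn, and small ones may turn without it. No scale without Ttn was tested. Ryr1 had 26.1 to 28.8 in stroma and 23.9 to 39.4 in epithelium of the same mice, and Atp2a1 had 31.6 to 35.6 and 34.9 to 52.0. Sln had 2.18 to 3.11 in stroma and 2.13 to 3.43 in epithelium. In OF5, OM8, YF5 and YM4, Ryr1 stood at 222, 79.5, 22.7 and 45.7 on this scale, from 10, 26, 92 and 9 counts. Atp2a1 stood at 66.7, 12.2, 48.8 and 15.2 in the same order, from 3, 4, 198 and 3 counts. Read by mouse, epithelium was higher than stroma in 5 of 5 mice for Cacna1s, Cacng1, Atp2a1, Trdn, Casq2 and Atp2a2, in 4 of 5 for Casq1 and Pvalb, and in 3 of 5 for Ryr1 and Sln. For Trdn, Casq2 and Atp2a2 the ranges did not meet either. Trdn had 3.13 to 3.85 in stroma and 4.00 to 6.85 in epithelium. Casq2 had 0.558 to 1.16 in stroma and 2.97 to 14.2 in epithelium, and Atp2a2 had 1.98 to 4.64 in stroma and 117 to 885 in epithelium. Within stroma, the spread between libraries on this scale fell for 6 of the 10 genes and grew for the other 4. The coefficient of variation went from 20.9% to 4.52% for Ryr1, from 18.5% to 4.81% for Atp2a1 and from 25.2% to 8.30% for Trdn. It went from 8.81% to 22.4% for Cacng1, from 20.3% to 29.3% for Casq2 and from 29.3% to 36.2% for Atp2a2. O1 stroma had the highest fast-fibre sum and the highest level of 7 of the 10 genes, and O3 stroma had the lowest sum and the lowest level of 6.

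**Figure D4:**
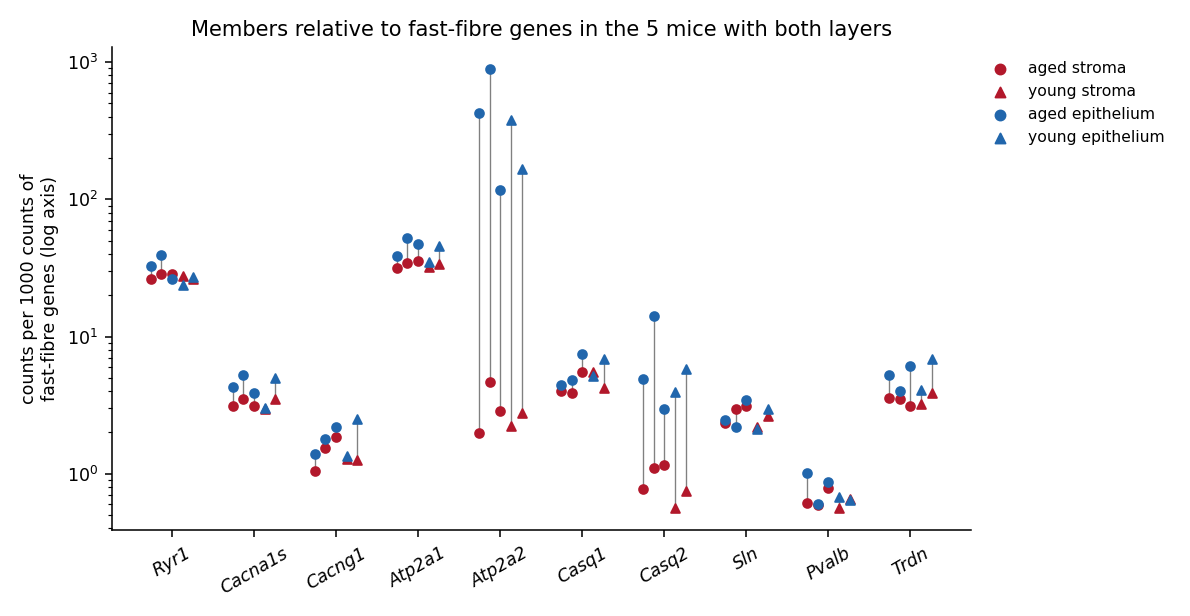
Counts of each gene per 1000 counts of the 11 fast-fibre markers (log axis) in stroma (red) and epithelium (blue) of the 5 mice with both layers, joined by mouse, with circles for aged and triangles for young. Ryr1 lies between 23.9 and 39.4 in both layers, whereas Atp2a2 is at 1.98 to 4.64 in stroma and 117 to 885 in epithelium.

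Other striated and smooth muscle markers were read beside the slow and cardiac forms. The 6 slow-fibre markers summed to between 839 and 1187 normalized counts in stroma, of which Myl3 made 768 to 1124, and to between 1.38 and 32.9 in epithelium. Tnnt1, the slow troponin T, had 28.9 to 101 in stroma and at most 0.952 in epithelium (log2 fold change 7.07, adjusted p = 4.39e-11, edgeR), and Tnni1 had 4.78 to 13.3 in stroma and 0.872 to 2.50 in epithelium. Myh7, the slow myosin heavy chain, had 1.44 to 9.95 in stroma, Myl2 0.0516 to 4.48 and Tnnc1 0 to 1.23. Of the 8 heart markers, whose sum was 262 to 575 in stroma and 11.6 to 49.2 in epithelium, Actc1 had 233 to 546 and Tnnt2 11.7 to 40.6 in stroma. Nppa was at 0 in 4 of 5 stromal libraries and at 0.0788 in Y3, and Myh6, a cardiac myosin, had 2.44 to 5.48. Nppb was at 0 in 3 of 5 stromal libraries and at most 0.817. Tnni3 had 0 to 3.97, and Myl7 had 0 to 1.52 in stroma and 1.18 to 6.25 in epithelium. Myl4 had 8.49 to 14.5 in stroma and at most 0.833 in epithelium. The part of slow fibres or heart-type muscle in the levels of Casq2 and Atp2a2 was not tested.

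Of 40 other genes of the coupling machinery, 37 were tested between the layers, 32 were called higher in stroma, 2 lower and 3 were not called, with a median log2 fold change of 3.57. Fkbp1b, Pln and Strit1 were too low in both layers to be tested. Pln, which encodes phospholamban, the regulator of SERCA2, had 0 to 1.497 normalized counts in stroma, and 64.7% of its exon length overlaps other genes on the opposite strand. Fkbp1b had 0 to 0.433 in stroma. Mrln, which encodes myoregulin, a peptide regulator of SERCA1, had 2.28 to 8.03 normalized counts in stroma and at most 0.0981 in epithelium (log2 fold change 7.17, SE 0.53, adjusted p = 5.18e-10). Srl, which encodes sarcalumenin of the sarcoplasmic reticulum lumen, had 228 to 506 and 0 to 13.3 (log2 fold change 6.77, SE 0.71, adjusted p = 1.16e-06).

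All 5 genes of tubule excitability were called higher in stroma. Scn4a, the skeletal muscle sodium channel, had 53.6 to 94.8 normalized counts in stroma and 0 to 3.33 in epithelium (log2 fold change 5.98, SE 0.37, adjusted p = 1.64e-10). Clcn1, the chloride channel that sets the resting membrane conductance of muscle, had 6.89 to 16.6 normalized counts in stroma against 0 to 0.720 in epithelium. All 4 partners of the voltage sensor were called higher in stroma, by a log2 of 5.54 for Cacng6, 5.09 for Stac3, 4.24 for Cacnb1 and 4.22 for Cacna2d1. Of the release partners tested, all 8 were called higher in stroma, led by Jsrp1 (6.72), Hrc (5.82), which encodes a histidine-rich calcium-binding protein of the store, and Tmem38a (5.43), which encodes a counter-ion channel. The 4 genes of tubule shape and membrane repair were called higher in stroma too, with Cav3 at 6.23, Bin1 at 4.68 and Trim72 at 4.06. The store-operated entry genes Stim1 and Orai1 had smaller log2 differences, of 1.92 and 1.51.

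The 12 genes for other isoforms and transporters were mixed. Itpr2 and Itpr3, which encode inositol trisphosphate receptors, were lower in stroma. Itpr2 had 15.2 to 28.3 normalized counts in stroma and 78.1 to 120 in epithelium (log2 fold change -2.23, SE 0.18, adjusted p = 2.18e-09). Itpr3 had 11.5 to 17.6 and 22.9 to 55.3 (log2 fold change -1.36, SE 0.20, adjusted p = 9.32e-06). The layers did not overlap for either gene. Slc8a3, a sodium-calcium exchanger, was called higher in stroma by 5.81, Atp2a3, which encodes SERCA3, by 2.62 and Ryr2, the cardiac ryanodine receptor, by 2.25. Per kilobase of exon, Ryr2 had 0.149 to 0.715 normalized counts in stroma, where Ryr1 had 52.6 to 87.7. Cacna1d, Atp2b1 and Atp2b4 were not called, with log2 fold changes of 0.60 (95% CI -0.20 to 1.40), 0.25 (-0.096 to 0.593) and 0.30 (-0.20 to 0.791).

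Age was compared within stroma, where the genes were high. None of the 10 genes was called between the 3 aged and the 2 young mice, and 0 of 21323 genes tested (0.0%) were called by edgeR, with 776 at an unadjusted p under 0.05 and 2 called by DESeq2. The log2 fold changes of aged over young ran from -0.28 for Casq1 (95% CI -0.92 to 0.35) to 0.50 for Casq2 (95% CI -0.033 to 1.03), and the median was -0.015. Those of Ryr1, Cacna1s and Atp2a1 were -0.06 (95% CI -0.70 to 0.58), -0.08 (95% CI -0.68 to 0.53) and -0.07 (95% CI -0.68 to 0.55). Scaling the libraries to the fast-fibre markers moved the median of all genes from -0.01 to 0.12 and turned the sign of Ryr1, Cacna1s and Atp2a1 to slightly positive values, of 0.05, 0.0061 and 0.04.

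Casq2 was the only gene of the set whose aged and young stromal libraries did not overlap, with all 3 aged libraries (46.4 to 56.1) above both young libraries (35.7 and 38.1). Over all genes tested, groups did not overlap for 4374 (20.5%), a larger share than the 1 of 10 in the set. The fit gave an SE of 0.24, an unadjusted p of 0.0628 and an adjusted p of 0.99996 for Casq2, so the difference did not pass the test. Its log2 fold change stayed between 0.43 and 0.55 when each mouse was left out in turn. The smooth muscle sum parted the same libraries in the same direction, at 816 to 2051 in aged and 303 to 600 in young stroma. The slow-fibre sum did so only narrowly, at 954 to 1187 in aged and 839 to 945 in young stroma. Each slow-fibre marker taken alone overlapped between the ages. Myl3, the largest, had 859 to 1124 in aged stroma and 768 and 908 in young stroma. The part of either muscle type in the Casq2 difference was not tested. The ratio of Casq1 to Casq2 was lower in all 3 aged libraries than in both young (difference in mean log2 ratio -0.75, exact permutation test, two-sided, p = 0.200), and that of Atp2a1 to Atp2a2 differed by -0.23 (exact permutation test, two-sided, p = 1). With 3 against 2 libraries the smallest p possible is 0.200, so neither ratio could pass 0.05. For the pump ratio the sign turned without O2, to 0.08.

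**Figure D5:**
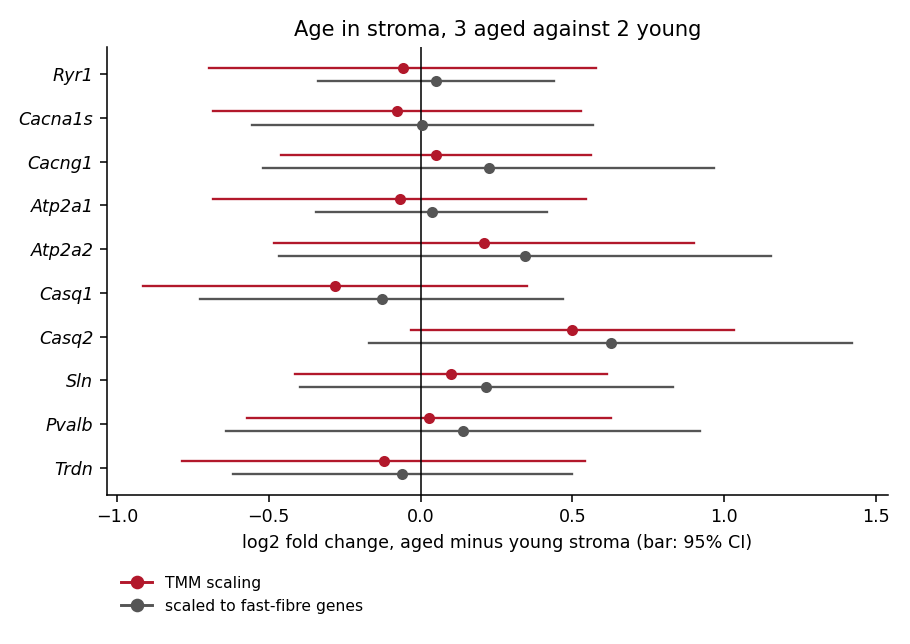
Log2 fold change of aged over young stroma with its 95% CI for the 10 genes, with libraries scaled by TMM (red) and to the fast-fibre markers (grey). Every interval includes 0, and Casq2 has the highest value on both scales, 0.50 and 0.63.

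In epithelium, none of the 10 genes was called with age, and 2 of 15107 genes tested were called (0.0132%). Fitted log2 fold changes of aged over young lay between -1.15 for Atp2a1 and -0.04 for Atp2a2, with a median of -0.51, and for 9 of the 10 the sign turned when some single mouse was left out. Without YF5 the median was 0.06 and Atp2a1 was at 0.15, and with the short-coded mice alone the median was 0.11. DESeq2 gave -2.40 for Atp2a1. The interval for Atp2a1 ran from -4.53 to 2.23 and that for Atp2a2 from -0.35 to 0.27, the narrowest of the set. No gene of the set had groups that did not overlap, as 204 of the genes tested did (1.35%). None of the other coupling genes was called with age, of 38 tested in stroma and 32 in epithelium.

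The genes whose levels were most alike over the 14 libraries were found by the smallest root mean square difference of centred log2 levels among 6837 other genes whose average log2 CPM was 3 or more. Since both layers enter, likeness mostly reflects the layer contrast, and it is given as a description. Atp2a1 was nearest to Ckm, the muscle creatine kinase (0.163), then Myl3 (0.296) and Cmya5 (0.323). Ryr1 was nearest to Hjv (0.288), Myo18b (0.300) and Tnni2 (0.326), and Sln to Hjv (0.247), Tnni2 (0.252) and Myo18b (0.256). Trdn was nearest to Mybpc1 (0.239), Klhl41 (0.292) and Klhl31 (0.354), and Cacna1s to Mybpc1 (0.303), Mylk4 (0.320) and Hjv (0.322). Cacng1 was nearest to Ppp1r3a (0.224), Adssl1 (0.299) and Ctxn3 (0.305), and Pvalb to Dhrs7c (0.228), Shisa2 (0.281) and Crhr2 (0.298). Casq1 was nearest to Pgam2 (0.306), 1110002E22Rik (0.387) and Myoz1 (0.411). Casq2 was nearest to the tropomyosin genes Tpm1 (0.278) and Tpm2 (0.315) and to Fhl1 (0.326), and Atp2a2 to Srp54a (0.204), Nploc4 (0.206) and Atf6 (0.209).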

How the data were processed

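Bulk RNA-Seq counts of esophageal tissue labelled epithelium and stroma were analysed for 10 coupling genes. The deposited files hold whole-number counts of reads per gene, which the authors made by aligning reads to GRCm38.p6 with Rsubread and summarizing them with featureCounts. The annotation release, the strand setting and the handling of reads that match several places are not given in the sources used here. Libraries were prepared after oligo(dT) enrichment, per the labels. Gene positions and exon lengths were taken from GENCODE M21, which holds 53292 of the 55291 symbols.

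The quasi-likelihood test of edgeR 4.0.16 (R 4.3.3; TMM scaling, filterByExpr at 10 counts, robust glmQLFit) was run over all genes, with Benjamini-Hochberg adjustment and a threshold of 0.05, and genes past it are said to be called. The layers were compared over 14 libraries without a covariate. Age was compared over the 5 stromal libraries, and over the 9 epithelial libraries with the form of the mouse code (short, or long as in OF5) as a covariate. SEs and 95% intervals come from the same fit. Ratios of gene pairs were tested by exact permutation with scipy 1.17.1, without pairing the layers of a mouse. Within a layer, each replicate is a separate mouse. The procedure was tested on simulated data.

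Epithelium and stroma of O1, O2, O3, Y1 and Y3 come from the same animal by the shared mouse code. The correlation of their deviations from the group means over 16791 genes was 0.0422 to 0.0685 in O1, O2 and O3. In Y1 and Y3 it was 0.141, and the value must be the same for both, as they are the only young mice with both layers. The alternatives were DESeq2 1.42.0, other scalings, filters and covariates, mouse as a block, and each mouse left out in turn.

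The genes, the lists of other coupling genes and the markers were chosen with earlier results of these data known. All 10 genes are named. Of the other coupling genes, the rule named up to 3 per list, ranked by the size of the layer difference where called, and every one that was not called there or was called with age; Clcn1, Cacna2d1, Itpr2 and Itpr3 were added after their values were seen. Some genes that the rule names are not reported here. For most-alike genes, 0.5 was added to normalized counts before the log2. The limits that 3 counts allow cover counting error only. The intervals of log2 fold changes come from the quasi-likelihood fit and include its estimate of the spread between libraries.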

Additional observations from a re-analysis of the deposited data

Results flagged for a closer look

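Of 24 sets of values examined for a library far from the rest (each of the 10 genes and both ratios in each epithelial age group), 1 stood out. The log2 level of Atp2a2 (0.5 added) was 7.13 in Y1 epithelium, against 6.60 to 6.68 in the other 3 young epithelial libraries. Chance gives such a gap in about 1 of 20 sets.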

How the results depend on the processing

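Between the layers, 9 or 10 of the 10 genes were called under every alternative except the filter of 10 counts in every library, under which 1 gene of the set could be tested and was called and 4316 genes were called in all, against 9441. The log2 fold change of Atp2a2 passed the threshold with DESeq2 (0.54), DESeq2 size factors (0.54), upper quartile scaling (0.57), the strict filter (0.79), without O1 (0.59) and without O3 (0.57). With mouse as a replicate block, which pairs the layers of each animal, 8590 genes and 9 genes of the set were called, and the block changed no call of the set against the same 10 libraries without it. On CPM of the deposited total, which includes rRNA, the difference between the layers in mean log2 level was larger for all 10 genes, by 0.52 to 0.90, and went from 0.47 to 1.37 for Atp2a2 and from 4.06 to 4.82 for Casq2. No gene of the set was called with age in either layer under any alternative. The count of all genes called with age in stroma was 2 with DESeq2, 26 without a filter and 0 to 13 with each mouse left out (13 without Y1, 7 without Y3). In epithelium it was 24 with DESeq2, 36 without a filter, 0 without the covariate, 4 with short codes only and 0 to 3 with each mouse left out (0 without Y1, 1 without O1). In stroma, signs of age differences that were never called turned with fast-fibre scaling for Ryr1 (0.051), Cacna1s (0.0061) and Atp2a1 (0.036), with upper quartile scaling for Cacng1 (-0.024) and Pvalb (-0.036), and with the strict filter for Pvalb (-0.0048). With each mouse left out, the ranges were -0.28 to 0.15 for Ryr1, -0.28 to 0.090 for Cacna1s, -0.14 to 0.22 for Cacng1, -0.26 to 0.053 for Atp2a1, -0.17 to 0.39 for Atp2a2, -0.62 to 0.10 for Casq1, -0.00049 to 0.18 for Sln, -0.16 to 0.10 for Pvalb and -0.41 to 0.070 for Trdn, and -0.47 to 0.080 for the log2 pump ratio. The cause of these changes was not tested. With 1 young stromal library left, that library was assumed to vary like the aged ones, and ratios had no test. Depth limits the epithelial values most in OF5, OM8, YF5 and YM4, where 3 counts correspond to 0.707 to 1.25 normalized counts.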
